A study of Mus musculus with 7 samples.

Results

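The adipocyte identity genes are genes by whose transcripts fat cells are usually recognised: the regulators Pparg and Cebpa, the lipid handling genes Fabp4, Lpl, Cidec and Plin1, and the secreted proteins Adipoq, Lep, Retn and Cfd. They were chosen by name, and each was looked up among the gene probes through its RefSeq accession. Of the 10 genes, 9 had a probe, each a single one, among 13971 genes with a named probe; Plin1 had none and has no array value here. RNA of cultured mouse mammary glands was hybridized to 7 CodeLink Mouse Whole Genome arrays, 1-colour oligonucleotide arrays, with 1 array per group.

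All glands came from mice aged 4 weeks and were kept in serum-free organ culture. According to the labels, the mice had received estrogen (1 µg) and progesterone (1 mg) over 9 days before culture, while another passage of the same labels gives EGF (25 ng) with progesterone, each day over 5 days. For the WT, αERKO and βERKO arrays the study states the pretreatment with EGF and progesterone. Culture ran for 10 days with insulin, prolactin, aldosterone and hydrocortisone (growth promotion), followed in the 24-day cultures by 14 days with insulin only (regression). The groups were wild type (WT) C57 glands at 10 days without 7,12-dimethylbenz[a]anthracene (DMBA), a polycyclic hydrocarbon carcinogen, WT C57 glands at 24 days without DMBA, and WT C57 glands at 24 days with DMBA. Glands of αERKO mice, which lack Esr1, and of βERKO mice, which lack Esr2, both on a C57BL6/129SV background, were taken at 24 days, as were WT Balb/c glands with and without vitamin D5. DMBA was given at 2 µg/ml on day 3 for 24 h. The titles name it for the WT array alone, whereas the study's methods describe it for the knockout glands too. For the Balb/c arrays no title mentions DMBA, and no dose of vitamin D5 is given. For the WT, αERKO and βERKO groups RNA of 5 mice was pooled, so the spread between mice cannot be seen, and the WT strain was not the mixed background of the knockouts. In the study the WT and βERKO glands put on arrays bore mammary alveolar lesions, preneoplastic growths that DMBA induces, and the αERKO glands bore none, so that genotype and lesions cannot be told apart.

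Values are log2 intensities relative to the median gene probe of the same array, so that 0 is the level of that median. With 1 array per group, no difference given here has a replicate check and no test was run. As a measure of the spread between probes, the SD of log2 ratios between different probes of the same transcript was 0.19 to 0.67 over the 21 pairs of arrays. Variation between arrays or samples that such probes share is not in it. A difference larger than this SD is therefore not shown to repeat on other arrays. The scanner software called between 68.4% and 74.2% of gene probes good on each array, and 61 of 63 spots of the adipocyte genes. The other 2 spots, those of Lep on both Balb/c arrays, were near background and carry only a bound. The Esr2 probe went against a label, being good on the βERKO-labelled array at 0.87. Elsewhere it was good only in C57 glands at 24 days without DMBA, at -0.55, so that it was near background on most WT arrays, that with DMBA among them. The Esr1 probe was near background on the αERKO array, as it was on 4 of the other arrays. On the αERKO array, skeletal muscle genes stood apart, with a summed normalized intensity of 2170 against 8.12 to 51.3 on the other 6.

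White adipocytes store triglyceride in a single large droplet, release fatty acids from it and secrete hormones. They arise from fibroblast-like precursors when Pparg and Cebpa, transcription factors that sustain each other, switch on the genes of fat uptake, storage and secretion. In the mammary gland they form the fat pad into which the ducts grow.

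All 9 genes separated the arrays in a similar way. The lowest 3 values of each gene lay on the C57 10-day array and both Balb/c arrays. The αERKO array and the βERKO-labelled array were among the highest 3 for all 9, and the WT array with DMBA for 8. The αERKO array was highest for 8 of 9, the exception being Lpl. Only for Cfd, Retn and Pparg was its lead over the next array larger than the SD of probe ratios. For Fabp4, Adipoq, Lep, Cidec and Cebpa the first place is therefore not resolved. Balb/c glands with vitamin D5 had the lowest value for 8 of 9, the exception being Pparg. For Lpl, Lep, Retn and Cebpa this last place is not resolved either, and Lep was near background on both Balb/c arrays. The summed normalized intensity of the 9 genes was 465 for C57 glands at 10 days, 1235 at 24 days and 2275 at 24 days with DMBA. It was 3497 on the αERKO array, 1826 on the βERKO-labelled array, 442 for Balb/c glands and 329 with vitamin D5. The brightest genes dominate these sums, Fabp4 giving 230 and Lpl 160 of the 465 in C57 glands at 10 days. Between the αERKO array and the WT array with DMBA the sums differ largely through Cfd, 682 against 167, and Retn, 615 against 282. In these bulk samples fewer cells of a type and less RNA per cell cannot be told apart.

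**Figure D1:**
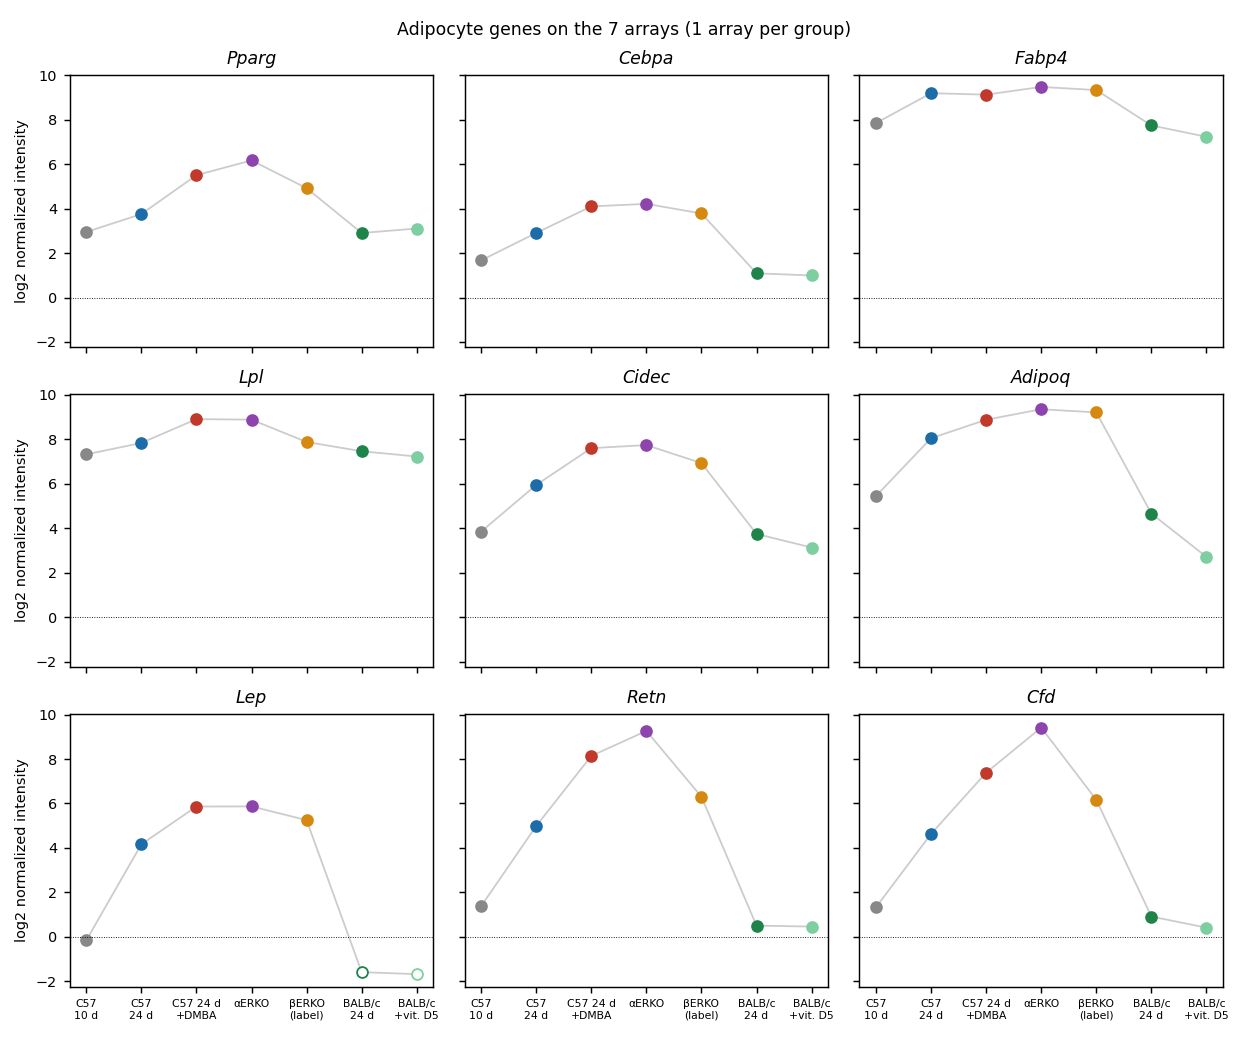
Log2 normalized intensity (y axis, 0 being the median gene probe) of each of the 9 adipocyte genes on the 7 arrays (x axis, 1 array per group), with filled points for good spots, open points for spots near background and grey lines only to guide the eye. The C57 10-day and Balb/c arrays are low in every panel, and the spread is widest for Cfd, Retn and Lep, where the highest and lowest arrays are 511-fold, 446-fold and, for Lep, at least 187-fold apart.

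Pparg, the nuclear receptor that drives adipocyte differentiation, had log2 levels of 2.95 in C57 glands at 10 days, 3.75 at 24 days and 5.50 at 24 days with DMBA. It was at 6.17 on the αERKO array, 4.92 on the βERKO-labelled array, 2.90 in Balb/c glands and 3.10 with vitamin D5. The lowest 3 of these differed from their neighbours in order by less than the spread between probes. Cebpa, the partner of Pparg in maintaining the adipocyte state, was at 1.67, 2.90 and 4.10 on the 3 C57 arrays in the same order. Its levels were 4.21 on the αERKO array, 3.78 on the βERKO-labelled array, 1.09 in Balb/c glands and 0.99 with vitamin D5. For Cebpa the highest 3 arrays were within the spread of their neighbours.

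Sequences before the starts of member genes are shown because the measured genes had similar profiles on the arrays. RefSeq promoter sequences (GRCm38.p6) matched 8 of the 10 genes, in 11 windows of 250 bases, counting 1 window of Plin1, which has no array value. They were searched on both strands for 3 motifs. TTGCNNAA, which C/EBP factors can bind, was found in 4 of 11 windows, that of Plin1 among them, and 9.56% of 32851 promoters of the same length hold it. AGGTCA, a half-site of nuclear receptors, was found in 2 of 11, against 14.0% of promoters. The TATA box, searched as TATAAA, was in 2 of 11, against 12.4%. A match is a run of letters, not a shown site. In the sequences below the matches are in capitals. The Cebpa window, plus strand of chr7:35119043-35119292, has TATAAA beginning 30 bases before the start. The Pparg window farthest downstream, plus strand of chr6:115421816-115422065, has TTGCCAAA at 215 bases and TTTTGCAA, a match on the minus strand, at 16 bases before the start.
Cebpa: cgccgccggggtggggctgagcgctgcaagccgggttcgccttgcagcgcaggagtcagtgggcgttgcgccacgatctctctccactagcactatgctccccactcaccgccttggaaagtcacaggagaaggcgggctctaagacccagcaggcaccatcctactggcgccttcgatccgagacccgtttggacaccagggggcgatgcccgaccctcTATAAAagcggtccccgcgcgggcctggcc
Pparg: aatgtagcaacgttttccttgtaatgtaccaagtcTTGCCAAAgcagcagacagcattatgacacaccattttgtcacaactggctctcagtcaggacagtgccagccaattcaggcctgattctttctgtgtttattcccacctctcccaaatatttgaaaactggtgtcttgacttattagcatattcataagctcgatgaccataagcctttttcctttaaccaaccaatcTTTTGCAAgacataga

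Fabp4, the fatty acid carrier of the adipocyte cytoplasm, was bright on every array. Its levels were 7.85 in C57 glands at 10 days, 9.19 at 24 days and 9.12 with DMBA, then 9.47 on the αERKO array, 9.33 on the βERKO-labelled array, 7.74 in Balb/c glands and 7.23 with vitamin D5. The highest 4 arrays were within the spread of their neighbours, and there the spot had between 73.0% and 94.3% of the intensity of the array's brightest gene probe, without a saturation flag. Lpl encodes lipoprotein lipase, which frees fatty acids from circulating triglyceride and is made by other cells than adipocytes too. Its range was the narrowest of the 9 genes, 3.21-fold, with 7.32, 7.84 and 8.91 on the C57 arrays at 10 days, 24 days and 24 days with DMBA. It was at 8.89 on the αERKO array, 7.88 on the βERKO-labelled array, 7.46 in Balb/c glands and 7.23 with vitamin D5.

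Cidec, a protein of the lipid droplet surface that lets droplets fuse, was at 3.85, 5.95 and 7.60 on the C57 arrays at 10 days, 24 days and 24 days with DMBA. It reached 7.74 on the αERKO array and 6.93 on the βERKO-labelled array, and lay at 3.75 in Balb/c glands and 3.13 with vitamin D5. Of the 9 genes, Cidec was nearest to the median profile of all of them, with a root mean square difference of 0.10 on the log2 scale over the 7 arrays. That profile includes Cidec. On the αERKO, βERKO-labelled, C57 24-day and both Balb/c arrays the median was the value of Cidec itself, so its nearness is no separate result.

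Among the secreted proteins, Adipoq encodes adiponectin, a hormone that raises insulin sensitivity. Its levels were 5.45 in C57 glands at 10 days, 8.05 at 24 days and 8.88 with DMBA, 9.35 on the αERKO array, 9.21 on the βERKO-labelled array, 4.66 in Balb/c glands and 2.71 with vitamin D5. The last value was below all others by more than the spread between probes, and the highest 3 were within it. Lep encodes leptin, the hormone that reports fat stores to the brain. It was at -0.16 at 10 days, 4.17 at 24 days and 5.86 with DMBA in C57 glands, at 5.87 on the αERKO array and 5.25 on the βERKO-labelled array. On both Balb/c arrays it was near background, at -1.59 and, with vitamin D5, -1.68.

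Retn encodes resistin, a hormone that in mice is made mainly by adipocytes. It was at 1.38, 4.99 and 8.14 on the C57 arrays at 10 days, 24 days and 24 days with DMBA, 9.26 on the αERKO array, 6.30 on the βERKO-labelled array, 0.51 in Balb/c glands and 0.46 with vitamin D5. Only the last pair lay within the spread between probes. Cfd encodes adipsin, a protease of the alternative complement pathway. Its levels were 1.33, 4.63 and 7.39 on the C57 arrays, 9.41 on the αERKO array, 6.16 on the βERKO-labelled array, 0.91 in Balb/c glands and 0.42 with vitamin D5. No neighbouring pair of arrays was within the spread for Cfd.

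The Lep and Retn windows are set side by side because both genes had large ratios across the arrays. The Lep window, plus strand of chr6:29059971-29060220, holds TTGCGCAA beginning 55 bases before the start. The Retn window, plus strand of chr8:3655520-3655769, has no match to the 3 motifs, which says only that these letters are not in it.
Lep: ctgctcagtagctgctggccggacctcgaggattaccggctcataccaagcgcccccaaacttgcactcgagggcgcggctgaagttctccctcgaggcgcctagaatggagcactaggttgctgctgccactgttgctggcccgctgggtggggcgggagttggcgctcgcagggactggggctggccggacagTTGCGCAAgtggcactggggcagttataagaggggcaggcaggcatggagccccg
Retn: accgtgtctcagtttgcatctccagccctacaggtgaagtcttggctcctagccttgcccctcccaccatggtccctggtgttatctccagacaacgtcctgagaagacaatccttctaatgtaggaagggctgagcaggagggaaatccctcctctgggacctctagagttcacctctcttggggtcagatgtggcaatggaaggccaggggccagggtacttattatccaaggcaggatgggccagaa

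The comparison of culture times asks what differed between C57 glands at the end of growth promotion and glands that had then passed through regression, so that time and the change of medium cannot be told apart. Of the 9 adipocyte genes, 7 were over 2-fold higher at 24 days and none was over 2-fold lower. Over all 11887 genes measured, 5.47% were over 2-fold higher and 4.34% lower. The median log2 ratio of the 9 genes was 2.10, against 0.16 for all genes. Lep was 20.0-fold higher, Retn 12.2-fold, Cfd 9.84-fold and Adipoq 6.07-fold. Cidec was 4.28-fold higher and Fabp4 2.54-fold, with log2 ratios of 2.10 and 1.34. The 2 regulators differed less, with log2 ratios of 1.23 for Cebpa and 0.81 for Pparg, and Lpl had 0.51. All 9 ratios were larger than the spread between probes for this pair of arrays, which was 0.23. Under normexp background correction the ratio of Cebpa was 0.98, below 2-fold.

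**Figure D2:**
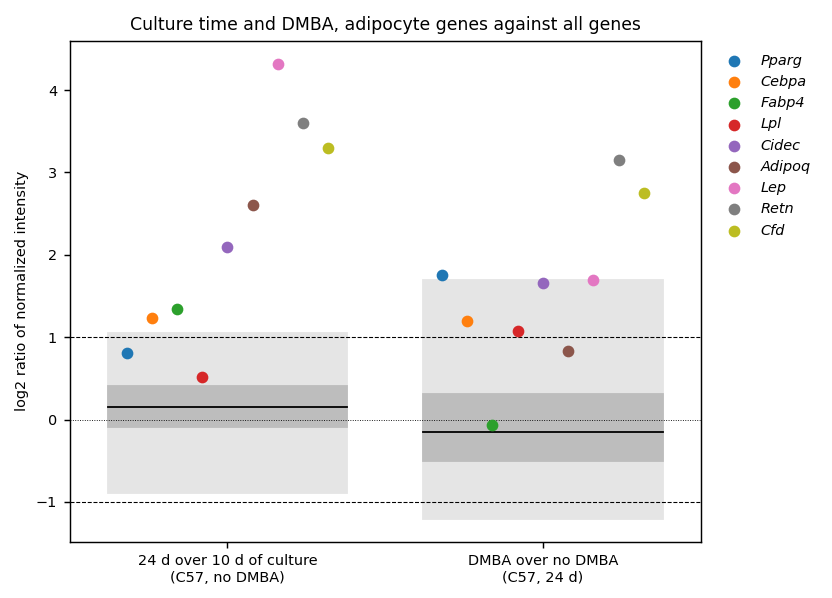
Log2 ratios of normalized intensity (y axis) of the 9 adipocyte genes in the comparisons of 24 with 10 days of culture and of DMBA with no DMBA (x axis, 1 array on each side). The dark and pale grey bars span the 25th to 75th and the 5th to 95th percentiles of all genes, the black line is their median, 0.16 and -0.15, and dashed lines mark 2-fold. In both comparisons 7 of 9 genes lie above the upper dashed line, and Fabp4, at -0.07, lies near the median in the second.

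Other genes of the adipocyte programme were counted in the same comparison. Of 16 measured lipid droplet and lipolysis genes, 6 were over 2-fold higher, with a median log2 ratio of 0.67, among them the droplet coat protein Plin4 at 2.14 (1.56 as the median of its probes), the caveolar protein Cav1 at 2.05 and the glycerol channel Aqp7 at 1.66 (0.94 under normexp). Of 16 fatty acid and triglyceride synthesis genes, 4 were higher and the median was 0.46. Pck1, which supplies glycerol phosphate for storage, had a log2 ratio of 5.27, Thrsp, a protein induced with lipogenesis, 2.14 and Gpd1, which makes glycerol phosphate, 1.65. In the list of fatty acid and glucose uptake and insulin action, 5 of 11 were higher. Acsl1, which activates fatty acids, had 2.82. Slc2a4, the insulin-responsive glucose transporter, had 2.38, or 1.59 as the median of its probes. Gpihbp1, which anchors lipoprotein lipase to capillaries, had 3.01, with an irregular spot on the 24-day array.

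Of 12 other proteins secreted by or abundant in adipose tissue, 5 were higher and 1 lower, with a median of 0.87. Cyp2e1, a cytochrome that fat cells share with liver, had the largest log2 ratio among the named genes of the pathway lists, 6.57. It was followed by Car3, a carbonic anhydrase abundant in fat and muscle, at 5.48. Rbp4, the carrier of retinol, had 1.65. By contrast, only 1 of 13 other adipogenic transcription factors was over 2-fold higher, Ebf1, which acts with Pparg, at 1.09 (0.77 under normexp), and their median, 0.10, was close to that of all genes. In the same list the coactivator gene Ppargc1b had -0.81 and the liver X receptor gene Nr1h3 0.77. Of 9 genes of preadipocytes and inhibitors of adipogenesis none was higher and the median was -0.09. Within it, Ly6a, a surface marker of precursors, had -0.99, Ddit3, an inhibitor of C/EBP factors, 0.87, and Dpp4, near background at 24 days, was at least 1.18-fold lower.

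Markers of other cells were counted between the same 2 arrays. Of 5 milk genes, 2 were over 2-fold higher at 24 days, with sums of 82.8 at 10 days and 322 at 24 days. The caseins Csn2 and Csn3 had log2 ratios of 6.73 and 2.17, and the median of the list was -0.03. Luminal epithelium genes had a median log2 ratio of 0.12, with none of 8 over 2-fold and summed intensities of 1067 at 10 days and 1200 at 24 days. Of 6 basal epithelium genes, 4 were over 2-fold lower, with sums of 730 and 282. Of 6 measured fibroblast genes, 2 were over 2-fold lower and 1 higher (1 lower and none higher under normexp). Their median log2 ratio was -0.50, while the sums of the list were 18.8 and 18.9. Col1a1 and Col1a2 were near background at both times. Endothelial genes, 2 of 6 higher, had sums of 4.31 and 10.1, and macrophage genes, 1 of 5 higher, 171 and 188. The part of milk genes and of these cells in the differences of the adipocyte genes was not tested.

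**Figure D3:**
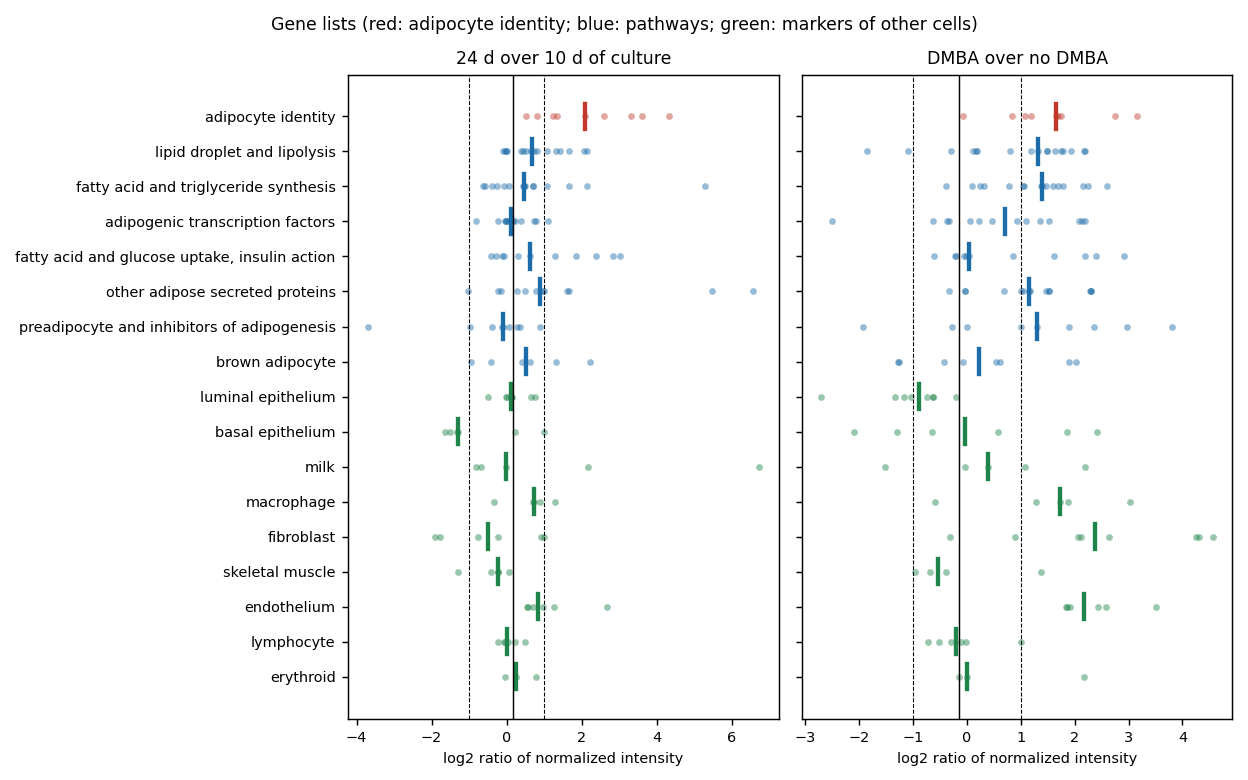
Log2 ratios of normalized intensity (x axis) of single genes (dots) and their list medians (thick ticks) for the adipocyte identity genes, 7 pathway lists and 9 lists of markers of other cells (y axis), in the comparison of culture times (left) and of DMBA (right). The solid vertical line is the median of all genes, 0.16 and -0.15, and dashed lines mark 2-fold. The adipocyte identity genes have the highest list median on the left, 2.10, and on the right fibroblast, endothelium and macrophage genes have higher ones, 2.37, 2.18 and 1.73, than their 1.66.

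The comparison of C57 glands at 24 days with and without DMBA shares the array without DMBA with the comparison of culture times. The ratios of the 2 comparisons are therefore not independent. For the array without DMBA only the labels give a pretreatment, and they give both. The glands with DMBA bore lesions, so that DMBA, lesions and any difference in pretreatment cannot be told apart. With DMBA, 7 of the 9 adipocyte genes were over 2-fold higher, where 11.6% of 12150 genes were, and none was lower, where 7.79% were. Their median log2 ratio was 1.66, against -0.15 for all genes, and the spread between probes was 0.30. Retn was 8.89-fold higher and Cfd 6.74-fold, with log2 ratios of 3.15 and 2.75. Pparg was 3.36-fold higher, Lep 3.24-fold, Cidec 3.15-fold, Cebpa 2.29-fold and Lpl 2.10-fold. The remaining 2 genes were not over 2-fold: Adipoq had a log2 ratio of 0.83, and Fabp4 had -0.07, within the spread. Both were bright on both arrays, as was Lpl, and the part of brightness in these ratios was not tested. Under quantile normalization and cyclic loess Adipoq passed 2-fold, with 1.10 and 1.20, and Fabp4 had 0.21 and 0.38.

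The other lists of the adipocyte programme were counted in this comparison too. Among lipid droplet and lipolysis genes, 10 of 17 were over 2-fold higher and 2 lower. The phosphodiesterase Pde3b, through which insulin restrains lipolysis, had a log2 ratio of 2.19, Aqp7 2.18 and Lipe, the hormone-sensitive lipase, 1.93, whereas the droplet proteins Plin2 and Cidea, chosen after their values were seen, had -1.09 and -1.85. Of 16 synthesis genes 11 were higher and none lower, with a median of 1.39. They included Thrsp at 2.59, the acyltransferase Agpat2 at 2.26 and the fatty acid synthase Fasn at 2.15. In the uptake list, 4 of 11 were higher, among them Slc2a4 at 2.39 and Acsl1 at 2.19, but the median was 0.04. Gpihbp1 had 2.92, measured against the irregular spot.

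Of 14 other genes of proteins secreted by or abundant in adipose tissue, 10 were higher. Among them, Lpar1, a receptor for lysophosphatidic acid, and Rbp4 both had 2.30. Nnat, a proteolipid, was at least 2.85-fold higher from near background. Among other adipogenic transcription factors 6 of 14 were higher and 1 was lower. Ebf1 and Ebf2, factors of the adipocyte lineage, had 2.19 and 2.13, and Klf5, a factor of early differentiation that epithelial cells also express, had -2.49. Of 9 preadipocyte genes and inhibitors of adipogenesis, 5 were higher and 1 lower. The platelet-derived growth factor receptors Pdgfrb and Pdgfra, which mark stromal precursors, had 3.80 and 2.97, and Cd34, a marker of precursors and endothelium, had 2.37. Brown adipocyte genes were over 2-fold higher in 2 of 8 and lower in 2 of 8.

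Most fibroblast, endothelial and macrophage genes moved in the same direction. With DMBA 6 of 8 fibroblast genes were over 2-fold higher and their summed intensity was 213 against 18.9, with Col1a1 and Col1a2 near background without DMBA. All 6 measured endothelial genes were higher, with sums of 50.4 and 10.1, and 4 of 5 macrophage genes, with sums of 307 and 188. Luminal epithelium genes had ratios below 0 in 8 of 8, with 4 over 2-fold lower (2 under quantile normalization and 1 under cyclic loess) and sums of 575 and 1200. None of 6 lymphocyte genes was over 2-fold, with a median log2 ratio of -0.20, and basal epithelium genes were higher in 2 of 6 and lower in 2. Milk genes, 2 of 5 higher and 1 lower, had sums of 340 and 322. Their part in the result for the adipocyte genes was not tested.

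The knockout arrays were set against the WT array with DMBA, the study's own comparisons, which ask what the loss of each estrogen receptor changes. All 3 comparisons share arrays with each other. On the αERKO array 2 of the 9 adipocyte genes were over 2-fold higher than WT, where 10.2% of 12189 genes were, and none was lower, where 15.2% were. Cfd was 4.08-fold higher and Retn 2.18-fold, with log2 ratios of 2.03 and 1.13. Under quantile normalization and normexp, Retn was below 2-fold, at 0.83 and 0.91. Pparg had 0.66, Adipoq 0.47 and Fabp4 0.35. The other 4 genes lay between -0.02 and 0.14. Apart from Cfd, Retn and Pparg, these ratios were smaller than the spread between probes for this pair, 0.59. The median of the 9 was 0.35, against -0.17 for all genes. On the αERKO array all 8 skeletal muscle genes were over 2-fold higher, of which 4 (Ckm, Myh4, Tnnc2 and Pvalb) were near background on the WT array, 4 of 6 lymphocyte genes were higher, and all 5 macrophage, 5 of 6 basal epithelium and 4 of 5 milk genes were lower. Their part in the differences was not tested.

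On the βERKO-labelled array, 3 of 9 adipocyte genes were over 2-fold lower than WT, where 7.29% of 12077 genes were, and none was higher, where 6.62% were. Retn was 3.57-fold lower, Cfd 2.33-fold and Lpl 2.04-fold. Cidec had a log2 ratio of -0.67, Lep -0.61, Pparg -0.58 and Cebpa -0.32, while Fabp4 had 0.21 (-0.17 under cyclic loess) and Adipoq 0.33. The first 3 of these exceeded the spread between probes, 0.37, and the others did not. The median was -0.61, against 0.14 for all genes. Since the Esr2 probe was good on this array, no statement about the loss of Esr2 rests on these ratios. Fibroblast genes were over 2-fold lower in 5 of 8, with sums of 71.8 against 213, and endothelial genes in 5 of 6, with sums of 19.5 against 50.4. Macrophage genes were lower in 3 of 5, with sums of 148 against 307, the spot of Cd163 being irregular on the βERKO-labelled array. All 6 measured muscle genes were higher, and 3 of 5 milk genes were lower. Their part in the result was not tested.

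Set against each other, the αERKO array had 4 of the 9 genes over 2-fold higher than the βERKO-labelled array, where 11.8% of 12006 genes were, and none lower, where 20.2% were. Cfd was 9.51-fold higher, Retn 7.79-fold, Pparg 2.38-fold and Lpl 2.01-fold. Lpl fell below 2-fold under normexp, with a log2 ratio of 0.94. Cidec had 0.81, Lep 0.62 and Cebpa 0.43, and Adipoq and Fabp4 both had 0.14, so that the last 3 were within the spread of 0.56. The median of the 9 was 0.81, against -0.30 for all genes. Genes of other cells also differed between these arrays. On the αERKO array 8 of 8 muscle, 6 of 8 fibroblast, 4 of 6 endothelial and 4 of 6 lymphocyte genes were over 2-fold higher, while 6 of 8 luminal, 4 of 6 basal epithelium and 3 of 4 milk genes were lower. Fibroblast sums were 372 and 71.8, endothelial sums 56.7 and 19.5, and luminal sums 448 and 857. Their part in the result was not tested.

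**Figure D4:**
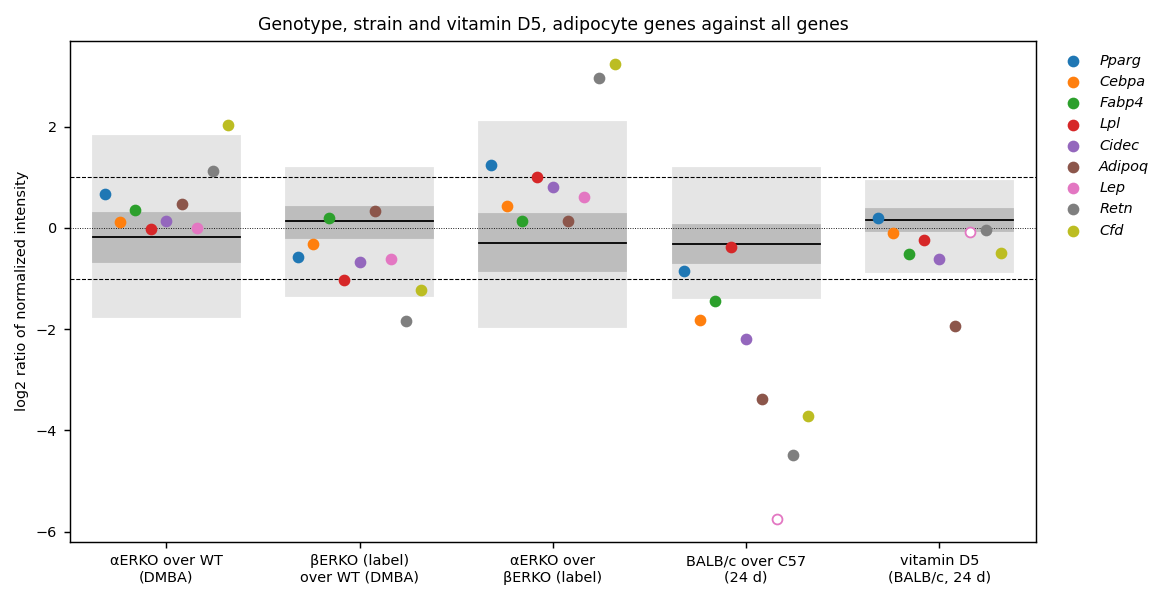
Log2 ratios of normalized intensity (y axis) of the 9 adipocyte genes for αERKO over WT, the βERKO-labelled array over WT, αERKO over the βERKO-labelled array, Balb/c over C57 and vitamin D5 over none (x axis, 1 array on each side). The dark and pale grey bars span the 25th to 75th and the 5th to 95th percentiles of all genes, black lines are their medians, dashed lines mark 2-fold, and open points rest on a spot near background. Cfd and Retn lie outside 2-fold in each of the first 4 comparisons, and 7 of 9 genes lie below the lower dashed line for Balb/c.

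Balb/c and C57 glands at 24 days, both without DMBA in their titles, were compared. The study describes no Balb/c glands. For both arrays only the labels give a pretreatment, and they give both, so that strain and any difference in pretreatment cannot be told apart. In Balb/c glands 7 of 9 adipocyte genes were over 2-fold lower, where 12.2% of 12113 genes were, and none was higher, where 6.22% were. The median log2 ratio was -2.20, against -0.31 for all genes, with a spread between probes of 0.33. Lep, near background in Balb/c glands, was at least 53.8-fold lower. Retn was 22.3-fold lower, Cfd 13.2-fold and Adipoq 10.5-fold. Cidec was 4.61-fold lower, Cebpa 3.52-fold and Fabp4 2.74-fold. Pparg had a log2 ratio of -0.85 and Lpl -0.37 (-0.02 under cyclic loess). The C57 array is the same one as in the comparisons of culture time and DMBA. Of the pathway lists, lipid droplet genes were over 2-fold lower in 7 of 17 and higher in 1, whose spot was irregular in Balb/c glands. Uptake genes were lower in 5 of 11 and synthesis genes in 6 of 17, with none higher. Genes of other secreted or abundant adipose proteins were lower in 5 of 14 and higher in 3. Macrophage genes were over 2-fold lower in 4 of 5, with sums of 120 and 188, endothelial genes in 3 of 7, with sums of 6.06 and 10.1, and luminal genes in 2 of 8, with sums of 911 and 1200. Fibroblast sums were 22.5 and 18.9. Milk genes, 2 of 5 lower and 1 higher, had sums of 61.6 and 322, with Csn2 near background in Balb/c glands. Their part in the result was not tested.

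With vitamin D5, Adipoq was 3.86-fold lower in Balb/c glands, and it was the only one of 8 measured adipocyte genes over 2-fold, where 4.39% of 12177 genes were over 2-fold lower and 4.41% higher. Cidec had a log2 ratio of -0.61, Fabp4 -0.51, Cfd -0.50 and Lpl -0.24, which exceeded the spread between probes of 0.22. Cebpa had -0.10, Retn -0.04 and Pparg 0.20. Lep was near background on both arrays and has no ratio. The median of the 8 was -0.37, against 0.16 for all genes. Milk genes were over 2-fold higher with vitamin D5 in 4 of 5, with sums of 61.6 without and 218 with it. Fibroblast genes were higher in 3 of 8, with sums of 22.5 and 42.0, and luminal genes in 1 of 8, with sums of 911 and 1075. Their part in the result was not tested.

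Genes outside the list were ranked by how closely their log2 values, centred over the 7 arrays, followed the median centred profile of the 9 adipocyte genes. On most arrays that median was the value of Cidec, so the ranking is largely one of likeness to its probe. Of 9330 genes good on all arrays, the 10 with the smallest root mean square difference were Glul, Prkar2b, Cav1, Sgcd, Col5a3, Lims2, Adhfe1, Mustn1, Prxl2a and Tbx15. The difference ranged from 0.32 for Glul, glutamine synthetase, and Prkar2b, a regulatory subunit of protein kinase A, to 0.46 for Tbx15, a transcription factor, whereas the median over all 9330 genes was 1.79. Glul, for example, had log2 levels of 6.43, 7.76 and 8.91 on the C57 arrays at 10 days, 24 days and 24 days with DMBA, 9.22 on the αERKO array, 8.73 on the βERKO-labelled array, 5.66 in Balb/c glands and 5.30 with vitamin D5. Cav1, which was also on the lipid droplet list, had 0.34. These values describe likeness over 7 arrays of a single series and carry no test.

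**Figure D5:**
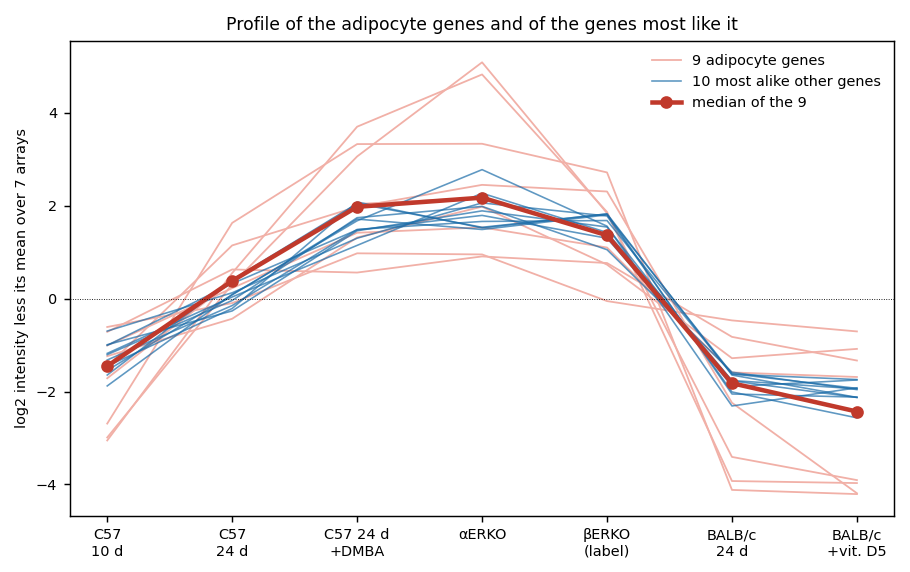
Log2 normalized intensity less its mean over the 7 arrays (y axis) on each array (x axis) for the 9 adipocyte genes (pale red), their median (thick red) and the 10 other genes most alike (blue). The median lies at -1.45 in C57 glands at 10 days, 0.38 at 24 days, 1.98 with DMBA and 2.18 on the αERKO array, and at -1.82 and -2.43 on the Balb/c arrays.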

How the data were processed

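Mammary gland RNA, 1 array per group, was measured on CodeLink arrays. The authors scanned the arrays and processed them with the CodeLink software, and the intensity they deposited for a spot is the spot mean minus the median of its local background. Intensities of 34967 gene probes were divided by the array's median gene probe, as the study's methods state, and log2 was taken, with 320 negative and 300 positive control spots left out. Median gene probe intensity was 39.1 to 53.0 over a local background of 80 to 83, and the number of arrays limits the precision.

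Probes were named by RefSeq's mouse gene table (14763 of 15553 with a RefSeq accession). A gene was represented by its probe with the highest mean, and counted where either spot of a comparison was good. Over 2-fold was the study's threshold. A spot near background gave only a bound, against the higher of the array's lowest good value and its own. Members, lists and motifs were chosen with earlier results of these data known. Named were all members, up to 3 genes with the largest ratio per pathway list in the comparisons of culture time and DMBA, and the 10 most alike genes. Other genes named are the knockout targets, markers from the lists, or said to have been chosen after their values were seen. Alternatives were the 75th percentile, quantile normalization, cyclic loess and normexp with offset 50 (limma 3.58.1, R 4.3.3), the deposited normalized intensity, a floor, the median over probes, good spots on both arrays, and 1.5-fold and 3-fold thresholds. The series table names no probe in its rows and was not used here. Python 3.11.15, numpy 2.4.6 and pandas 2.3.3 were used, and counting was tested on simulated data.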

Additional observations from a re-analysis of the deposited data

How the results depend on the processing

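No paired analysis was possible because each group has 1 array, and no array could be left out. None of the 441 alternative ratios of the adipocyte genes changed the sign of a ratio over 2-fold, and 24 moved by more than the spread between probes. Each of these genes has a single probe and no value below its array's lowest good one. The median over probes and the floor therefore could not change their ratios, medians or counts. The deposited normalized intensity is nearly the same scaling, so all these counts of unmoved values overstate stability. Of 294 alternative ratios of other named genes 32 moved. Of 126 alternative medians and counts, 117 stayed close and 9 moved. For αERKO over WT the count over 2-fold was 1 instead of 2 under quantile normalization, under normexp with offset 50 and at a threshold of 3-fold. For the βERKO-labelled array over WT it was 5 at 1.5-fold and 1 at 3-fold instead of 3, and for αERKO over the βERKO-labelled array 2 at 3-fold instead of 4. For vitamin D5 it was 2 at 1.5-fold instead of 1. For Balb/c over C57 the median log2 ratio was -1.85 under quantile normalization and -1.86 under cyclic loess instead of -2.20. The looser and stricter thresholds change counts by construction, and the cause of the other moves was not tested. Some counts of other lists moved by over 1.5 times. Under normexp, lipid droplet genes higher at 24 days were 3 instead of 6, brown adipocyte genes lower with DMBA and lower on the αERKO array 0 instead of 2, and fibroblast genes lower on the βERKO-labelled array 3 instead of 5. Between the 2 knockout-labelled arrays, normexp gave 3 instead of 6 fibroblast and 2 instead of 4 endothelial genes higher, and for vitamin D5 2 instead of 4 milk and 0 instead of 3 fibroblast genes. For Balb/c, normexp gave 4 instead of 7 lipid droplet genes, 2 instead of 4 macrophage and 1 instead of 3 endothelial genes lower. It gave 1 instead of 3 genes of other secreted or abundant adipose proteins higher. With spots good on both arrays, macrophage and endothelial genes lower in Balb/c glands were 1 each, and secreted or abundant adipose proteins higher 1. With such spots, muscle genes higher on the αERKO array were 4 instead of 8 and milk genes lower 2 instead of 4. The median ranged over the alternatives from 1.95 to 2.10 for culture time, 1.66 to 1.91 for DMBA, 0.13 to 0.48 for αERKO over WT, -0.83 to -0.61 for the βERKO-labelled array over WT, 0.74 to 1.22 for αERKO over that array, -2.20 to -1.85 for Balb/c and -0.49 to -0.25 for vitamin D5. Scaling moved the median of all genes by less than 0.1 for culture time and by up to 0.27 elsewhere, the latter between the 2 knockout-labelled arrays under cyclic loess. Signal near background limits Lep in Balb/c glands and the dimmer list genes, and pooled RNA on single arrays gives no spread between mice.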

Other observations

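Brown adipocytes burn fat for heat. Of 8 genes listed for them, 3 were over 2-fold higher in αERKO glands than on the WT array with DMBA, and 2 were lower. The median log2 ratio of the list was 0.12. The 2 lower genes, named after their values were seen, were Elovl3, at -1.39, and Ppargc1a, which was near background on the αERKO array. With spots good on both arrays 1 was lower instead of 2. Ucp1, the uncoupling protein that defines the cell type, was at 2.00 on the αERKO array, -0.09 in C57 glands at 24 days and -1.35 with DMBA. It was at -0.92 on the βERKO-labelled array and 0.02 in Balb/c glands with vitamin D5, and near background in C57 glands at 10 days and in Balb/c glands without vitamin D5. Cox8b, a cytochrome oxidase subunit of brown fat and muscle, was at 0.67, 2.90 and 4.79 on the C57 arrays at 10 days, 24 days and 24 days with DMBA. It was at 8.19 on the αERKO array, 4.08 on the βERKO-labelled array, 0.53 in Balb/c glands and 0.15 with vitamin D5. Cox7a1, another such subunit, was also highest on the αERKO array, at 4.54, while Prdm16, a regulator of brown fat identity that was chosen after its values were seen, lay between -0.66 and -0.09 on all 7 arrays. Cox8b and Cox7a1 are also made in muscle, whose listed genes had a summed intensity of 2170 on the αERKO array, and their part in these values was not tested.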
